A study of Homo sapiens with 18 samples.

Results

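The facilitative glucose transporters of the SLC2A family, the GLUT proteins, were followed across 3 human cell lines in normoxia and hypoxia. The 10 members were chosen by name from the SLC2A genes: SLC2A1, SLC2A2, SLC2A3, SLC2A4, SLC2A6, SLC2A8, SLC2A9, SLC2A10, SLC2A12 and SLC2A14. Another 4 SLC2A genes were counted but left out of this set, and are described further below. The members are 10 of the 23106 genes counted in each library, and all 10 were present in the gene list of every library. The data are polyA+ RNA-seq counts of HKC-8 cells, a renal tubule line, RCC4 cells, a clear cell renal carcinoma line, and HepG2 cells, a hepatoma line, with 3 normoxic and 3 hypoxic samples of each and 18 samples in all. The HKC-8 and HepG2 samples were unmodified lines labelled with hypoxia at 0.5% oxygen for 16 h, although the HKC-8 titles read 0.1% for hypoxia and 21% for normoxia. The RCC4 samples, labelled RCC4+VHL, came from cells that lack a working VHL of their own and had been stably transfected with wild-type VHL, in normoxia as in hypoxia, and their hypoxia is labelled 1% oxygen for 24 h, although the text of the study gives the same oxygen level and duration for every line. Each cell type is thus represented by a single line, and in RCC4 the cell line cannot be told apart from the labelled oxygen level and duration. The purpose of the RNA-seq was to rank genes by hypoxic regulation in each line.

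GLUT proteins carry hexoses across membranes down their concentration gradient, without coupling to ions or ATP, so that the number of transporters at the membrane limits how fast a cell can take up glucose. GLUT1 (SLC2A1) and GLUT3 (SLC2A3) have high affinity and serve basal uptake, GLUT2 (SLC2A2) has low affinity and high capacity and works in both directions in hepatocytes and in the basolateral membrane of renal proximal tubule cells, and GLUT4 (SLC2A4) is the insulin-responsive transporter of muscle and fat. In hypoxia, cells depend more on glycolysis, and SLC2A1 and SLC2A3 are textbook targets of the hypoxia-inducible factors (HIF), transcription factors that VHL marks for destruction in oxygenated cells.

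The lines carried the markers of their labels to different degrees. All 9 hepatocyte markers examined (among them ALB, APOA1, TTR and AFP) were above 1 CPM (CPM being counts scaled to library size by TMM over the 18 samples) in every HepG2 library, against 0 of 9 in HKC-8 and 1 of 9 (SERPINA1) in RCC4. PAX8 and CDH16, known from renal epithelium, were above 1 CPM in all libraries of the 3 lines, HepG2 included. Of 8 markers of the proximal tubule, 1 (ANPEP) passed 1 CPM in every HKC-8 library and 2 (AQP1 and GGT1) in every RCC4 library, but so did 2 (GGT1 and ANPEP) in every HepG2 library. Their summed level was 2.12 to 4.65 CPM in HKC-8, 143 to 178 CPM in RCC4 and 290 to 332 CPM in HepG2, so this list did not set the renal lines apart, and SLC22A6 had at most 3 counts in any library. Total counts ran from 40915980 to 97984260 per library, and HKC-8 libraries were the deepest, so that 3 counts correspond to between 0.0306 and 0.0733 CPM of the total. Replicate libraries differed by more than sampling noise, with a chi-square per degree of freedom of 4.57 to 91.5 between pairs of a group, and the labels do not say whether they came from separate cultures, so p-values measure the spread between these samples, which may be technical.

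The start of each gene was read first, because the factors named above bind DNA at a short core spelled ACGTG or GCGTG, and the letters show which members carry it close to their start. Of the 10 members, 8 (all but SLC2A3 and SLC2A4) had an entry in the RefSeq promoter table (GRCh38.p14), and the 250 bases before the start of each entry matched GRCh37 at exactly 1 place. ACGTG or GCGTG was present on either strand in 4 members (SLC2A6, SLC2A9 in 1 of its 2 entries, SLC2A10 and SLC2A14) and absent from SLC2A1, SLC2A2, SLC2A8 and SLC2A12, against 43.2% of the 35116 promoters of the table. The windows of SLC2A1, SLC2A2, SLC2A6 and SLC2A10 are shown, since SLC2A1, SLC2A2 and SLC2A10 are among the members that rose or fell in hypoxia and SLC2A6 holds the most matches. They are read 5′ to 3′ towards the start, and capitals mark the 5 bases of a match. SLC2A1 lies at chr1:43424540-43424789, minus strand, SLC2A2 at chr3:170744510-170744759, minus strand, SLC2A6 at chr9:136344222-136344471, minus strand, and SLC2A10 at chr20:45338038-45338287, plus strand, all GRCh37.
SLC2A1: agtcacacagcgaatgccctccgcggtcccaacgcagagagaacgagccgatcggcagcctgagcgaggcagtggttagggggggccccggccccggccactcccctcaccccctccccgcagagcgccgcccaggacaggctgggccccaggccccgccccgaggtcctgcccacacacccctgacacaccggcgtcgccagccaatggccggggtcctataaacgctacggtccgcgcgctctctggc
SLC2A2: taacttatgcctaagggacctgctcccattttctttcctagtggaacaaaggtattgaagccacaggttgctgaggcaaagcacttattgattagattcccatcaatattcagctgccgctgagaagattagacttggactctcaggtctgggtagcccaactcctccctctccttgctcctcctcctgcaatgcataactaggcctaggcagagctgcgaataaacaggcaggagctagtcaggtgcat
SLC2A6: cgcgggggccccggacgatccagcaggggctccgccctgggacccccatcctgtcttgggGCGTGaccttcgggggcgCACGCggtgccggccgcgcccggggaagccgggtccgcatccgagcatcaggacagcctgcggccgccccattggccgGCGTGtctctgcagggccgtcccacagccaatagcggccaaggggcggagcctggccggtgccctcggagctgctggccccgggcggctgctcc
SLC2A10: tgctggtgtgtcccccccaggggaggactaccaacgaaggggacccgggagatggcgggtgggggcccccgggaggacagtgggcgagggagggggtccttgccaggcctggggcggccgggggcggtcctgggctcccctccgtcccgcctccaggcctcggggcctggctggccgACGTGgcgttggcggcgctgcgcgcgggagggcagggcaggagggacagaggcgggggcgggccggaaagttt

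The SLC2A10 match is an ACGTG whose first base stands at position -73, counted back from the start. SLC2A6 holds 3 matches of GCGTG, 2 on the strand shown and 1 on the other, and the share of all table promoters with at least 2 matches of either motif was 19.4%. The SLC2A14 match is an ACGTG on the opposite strand at position -59, in a window at chr12:8025512-8025761 that lies wholly inside an annotated SLC2A14 exon and is therefore not printed. Annotated exons of the same gene also cover part of the windows of SLC2A1 (25 bases), SLC2A2 (23), SLC2A6 (28) and SLC2A8 (31). They cover 118 bases of the SLC2A9 window that holds a match. A match is a string of letters and not a measured binding site, and the windows of SLC2A1 and SLC2A2 say only that these letters do not occur in the 250 bases read.

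The levels of most members differed widely between the lines (see the plot of transcript levels by sample). In normoxia, 9 of 10 members tested differed between HKC-8 and HepG2 at an adjusted p under 0.05 (edgeR quasi-likelihood test with Benjamini-Hochberg adjustment, used for all adjusted p-values of single genes), 8 of them lower and 1 higher in HKC-8, where 82.2% of all genes tested differed (42.4% lower and 39.8% higher). Between RCC4 and HepG2, 10 of 10 differed, 8 lower and 2 higher in RCC4, against 87.1% of all genes (45.8% lower and 41.3% higher), and between HKC-8 and RCC4, 7 of 8 tested differed, 4 lower and 3 higher in HKC-8, against 85.0% of all genes (41.3% lower and 43.6% higher). The members' share is thus close to that of all genes in each comparison. The median log2 difference of the members tested was -4.60 for HKC-8 against HepG2 and -3.99 for RCC4 against HepG2, where the medians over all genes were -0.035 and -0.065. Some members passed the filter through 1 line only, which fixed their direction, and these counts and medians rest in part on them. SLC2A3, SLC2A4, SLC2A10 and SLC2A14 had 1, 2, 0 and 0 counts over the normoxic RCC4 libraries, and SLC2A2 and SLC2A14 had 13 and 7 in HKC-8. With at least 10 counts in every sample, 6 members were tested for RCC4 against HepG2, 4 lower and 2 higher in RCC4. For HKC-8 against RCC4, 5 were tested, 3 lower and 1 higher in HKC-8.

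**Figure D1:**
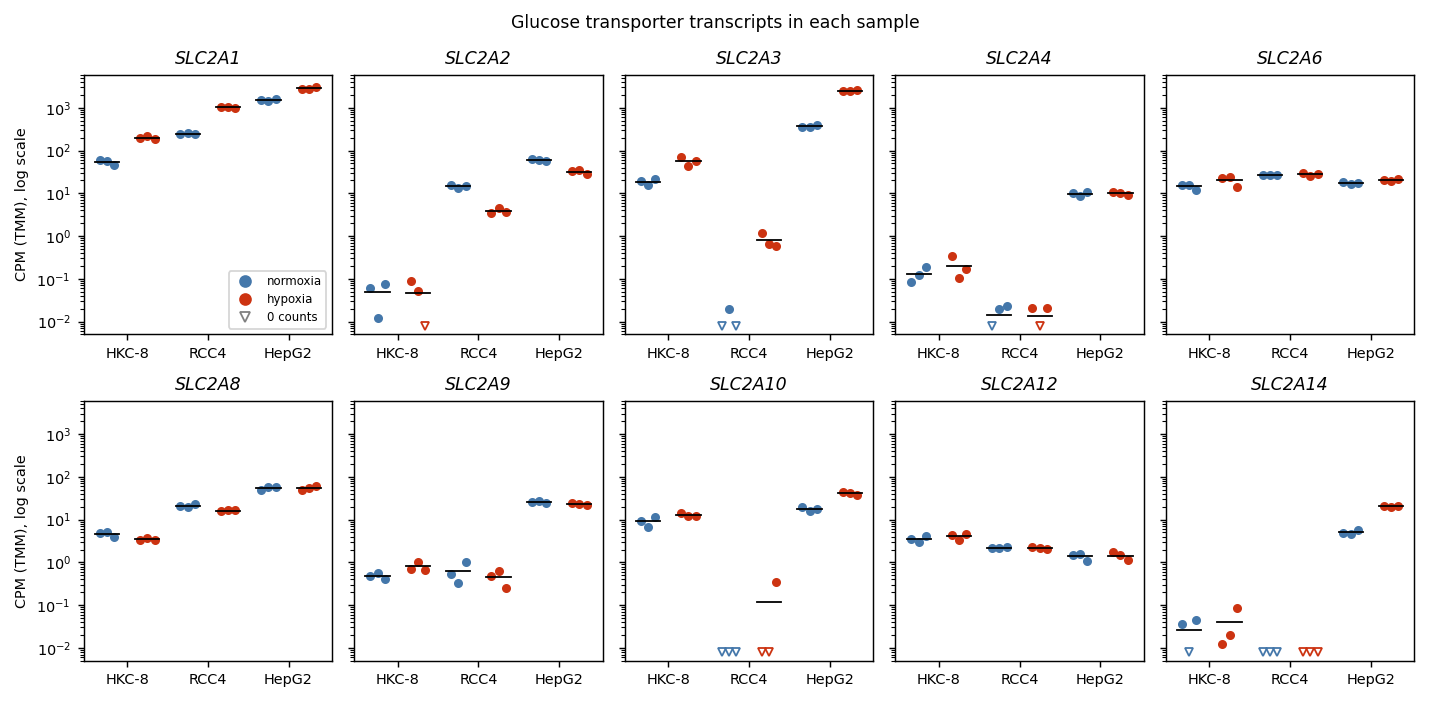
Each panel plots 1 member, with CPM (TMM-scaled, log axis) for the 3 normoxic (blue) and 3 hypoxic (red) samples of each cell line, the mean as a bar and samples with 0 counts as open triangles at the lower edge. SLC2A1 was above 46 CPM in all 18 samples, whereas SLC2A14 had no count in any RCC4 sample and SLC2A10 had counts in 1 RCC4 sample only.

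SLC2A1 codes for GLUT1, the transporter of red cells and the blood-brain barrier, and spans chr1:43391024-43424564 (GRCh37, minus strand, 10 exons in the canonical transcript). It had the highest level per kilobase of transcript of the 10 members in each of the 6 groups. In normoxia it stood at 58.9, 56.0 and 46.1 CPM in the 3 HKC-8 samples, at 244, 255 and 248 CPM in RCC4, and at 1506, 1468 and 1609 CPM in HepG2. The order HKC-8, RCC4, HepG2 held for every sample, with 4.67-fold more in RCC4 than in HKC-8 (log2 difference -2.22 ± 0.08 SE for HKC-8 over RCC4, adjusted p = 7.40e-09) and 6.04-fold more in HepG2 than in RCC4 (log2 difference -2.59 ± 0.06 SE, adjusted p = 6.00e-14).

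In hypoxia SLC2A1 rose in all 3 lines, and no hypoxic sample overlapped a normoxic sample of the same line. HKC-8 cells reached 194, 213.5 and 188.5 CPM, RCC4 cells 1041, 1052 and 1007 CPM, and HepG2 cells 2811, 2743 and 3028 CPM. The rise was 3.71-fold in HKC-8 (log2 fold change 1.89 ± 0.11 SE, 95% interval 1.66 to 2.13, adjusted p = 9.65e-06), 4.17-fold in RCC4 (2.06 ± 0.03, 1.99 to 2.13, adjusted p = 2.51e-23) and 1.87-fold in HepG2 (0.90 ± 0.07, 0.76 to 1.05, adjusted p = 1.92e-07). The lines kept their normoxic order: the lowest hypoxic HepG2 sample was above the highest hypoxic RCC4 sample, and every hypoxic RCC4 sample was above every HKC-8 sample. The response itself was larger in HKC-8 than in HepG2 by 0.98 on the log2 scale (interval 0.71 to 1.26, adjusted p = 0.00021) and larger in RCC4 than in HepG2 by 1.15 (interval 1.00 to 1.29, adjusted p = 5.21e-10). HKC-8 and RCC4 did not differ past the threshold, at -0.15 with an interval of -0.37 to 0.08 (adjusted p = 0.392). Without normoxic HKC-8 replicate 3, the sample with the lowest SLC2A1, that difference was -0.25 (adjusted p = 0.0409). The SLC2A1 exons overlap those of a long non-coding RNA on the opposite strand over 497 bases, and the strand setting of the counting is not given in the sources used here.

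Across the 3 lines, 2 of 8 members tested rose in HKC-8 and 0 fell (background 20.4% of 13536 genes in either direction, 11.2% higher and 9.12% lower). In RCC4, 2 of 7 rose and 2 fell (background 50.1% of 12811 genes, 25.9% higher and 24.2% lower), and in HepG2, 5 of 10 rose and 1 fell (background 39.1% of 13623 genes, 19.9% higher and 19.2% lower). The share of members called was thus near the background in HKC-8 and RCC4 and above it in HepG2, which is a description of 8, 7 and 10 genes and was not tested. These fits did not pair samples. With same-numbered HKC-8 samples paired, 5 of 8 members were called (4 higher and 1 lower), beside 42.5% of all genes. SLC2A2 and SLC2A14 in HKC-8, and SLC2A4, SLC2A10 and SLC2A14 in RCC4, had too few counts for the test. The members tested had a median log2 fold change of 0.54 (HKC-8), -0.03 (RCC4) and 0.15 (HepG2), beside 0.004, -0.002 and -0.004 for all genes tested. These are bulk libraries, so fewer cells with a transcript and less of it per cell cannot be told apart.

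**Figure D2:**
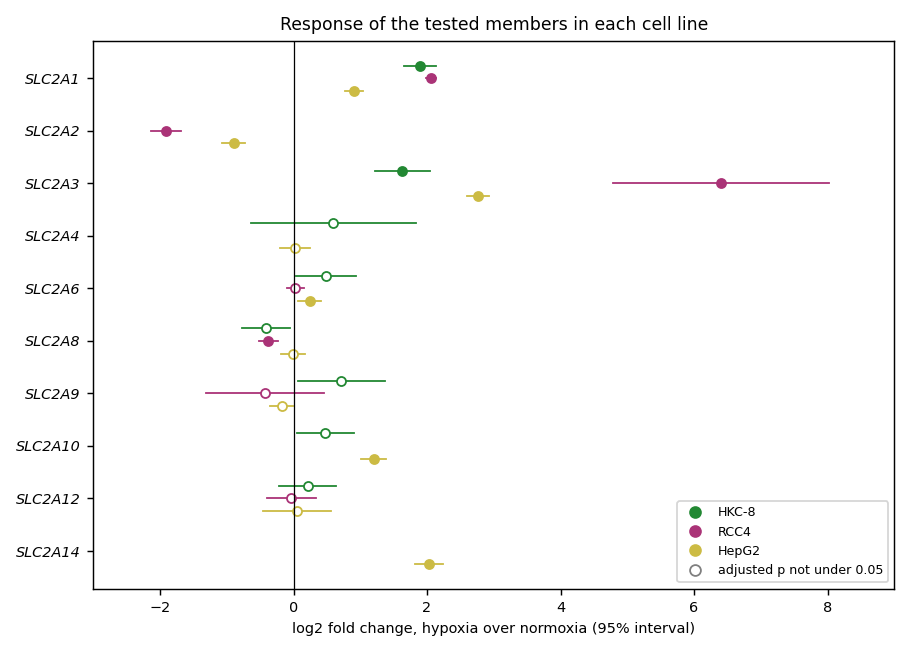
For each member tested, the log2 fold change of hypoxia over normoxia is plotted with its 95% interval in HKC-8 (green), RCC4 (purple) and HepG2 (yellow), filled where the adjusted p was under 0.05. The fits did not pair samples. SLC2A1 and SLC2A3 lie right of 0 in all 3 lines and SLC2A2 left of 0 in both lines where it was tested; the far point of SLC2A3 in RCC4 rests on 1 normoxic count.

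SLC2A3 codes for GLUT3, the high-affinity transporter best known from neurons, and ranged widely between lines. In normoxia HepG2 had 348, 359 and 406 CPM, HKC-8 had 18.98, 15.4 and 21.3 CPM, and the 3 RCC4 libraries together held 1 count (0, 1 and 0). HepG2 was above HKC-8 20.3-fold (log2 difference -4.35 ± 0.13 SE for HKC-8 over HepG2, adjusted p = 2.06e-11), and HKC-8 was above RCC4 with a count ratio of 2681 (interval for counting error 481 to 1.06e+05). No sample of one line overlapped a sample of another in normoxia.

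In hypoxia SLC2A3 rose in all 3 lines. HKC-8 reached 71.1, 43.0 and 57.7 CPM, all above the normoxic samples (3.09-fold, log2 1.63 ± 0.18 SE, adjusted p = 0.000707). HepG2 reached 2429, 2503 and 2653 CPM (6.81-fold, log2 2.77 ± 0.08 SE, adjusted p = 6.94e-12). The RCC4 libraries rose to 56, 32 and 29 counts, which gives a ratio of 115 to the single normoxic count with a counting interval of 20.2 to 4562 (adjusted p = 4.01e-07). The hypoxic RCC4 level of 0.798 ± 0.309 CPM (SD, n = 3) was still below every HKC-8 and HepG2 sample in either condition. The response in HKC-8 was smaller than in HepG2 by 1.14 on the log2 scale (difference -1.14, interval -1.59 to -0.70, adjusted p = 0.00268).

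SLC2A14 codes for GLUT14, a close copy of GLUT3 whose gene lies beside SLC2A3 on chromosome 12 (SLC2A14 at chr12:7965108-8043744 and SLC2A3 at chr12:8071826-8171603, GRCh37, both minus strand). The coding sequences of the 2 genes are 96.77% identical, with 48 differing bases of 1488 aligned, whereas the most alike of the other pairs of members, SLC2A1 and SLC2A4, reach 70.34%. Because counts of copies this close can be exchanged, the stretch where they differ most is shown: 60 coding bases with 7 differences, in capitals, from coding base 552 to 611 of SLC2A3 and 555 to 614 of SLC2A14 (canonical transcripts, GRCh37).
SLC2A3: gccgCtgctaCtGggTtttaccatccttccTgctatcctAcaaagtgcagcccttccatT
SLC2A14: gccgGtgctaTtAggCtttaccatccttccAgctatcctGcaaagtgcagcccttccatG

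Of the 50-base words of the SLC2A3 transcript, 23.5% also occur in SLC2A14, and 26.7% of those of SLC2A14 occur in SLC2A3. Reads that lie wholly within shared sequence can fail to map uniquely, and fragments that did not map uniquely had been removed from the counts. Values of both genes are therefore uncertain, and how much was lost was not measured. SLC2A14 had counts mainly in HepG2, with 4.87, 4.68 and 5.61 CPM in normoxia and 20.6, 20.2 and 21.1 CPM in hypoxia (4.08-fold, log2 2.03 ± 0.10 SE, adjusted p = 2.99e-09). The conditions did not overlap. HKC-8 libraries had 0 to 7 counts of SLC2A14 and all 6 RCC4 libraries had 0, so that the normoxic HepG2 level was at least 242-fold above RCC4 when RCC4 is set at 3 counts over its 3 normoxic libraries. As a percentage of SLC2A3 counts, SLC2A14 in HepG2 was 1.36 ± 0.051 in normoxia and 0.817 ± 0.0288 in hypoxia (SD, n = 3 each, exact two-sided permutation test p = 0.1, the smallest that 3 against 3 allows). On this measure too, no normoxic sample overlapped a hypoxic one.

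SLC2A2 codes for GLUT2 and fell in both lines where it could be tested. In HepG2 it went from 62.9, 59.4 and 56.5 CPM in normoxia to 32.8, 34.9 and 28.4 CPM in hypoxia (1.86-fold lower, log2 -0.90 ± 0.08 SE, adjusted p = 1.83e-06). In RCC4 it went from 15.7, 13.4 and 15.2 CPM to 3.38, 4.56 and 3.75 CPM (3.76-fold lower, log2 -1.91 ± 0.11 SE, adjusted p = 9.51e-13). In neither line did a hypoxic sample overlap a normoxic one, and the fall was deeper in RCC4 (difference -1.02, interval -1.32 to -0.73, adjusted p = 2.96e-05). HKC-8 libraries held between 0 and 7 SLC2A2 counts in both conditions. The normoxic level was 3.98-fold higher in HepG2 than in RCC4 (log2 difference -1.99 ± 0.08 SE for RCC4 over HepG2, adjusted p = 1.72e-11). SLC2A2 therefore moved opposite to SLC2A1 and SLC2A3 in the same samples.

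SLC2A4, the insulin-responsive GLUT4, was low outside HepG2. HepG2 had 8.77 to 10.5 CPM in normoxia and 9.34 to 10.5 CPM in hypoxia, HKC-8 had 7 to 27 counts per library, and RCC4 0 or 1. Neither HepG2 (log2 fold change 0.03, interval -0.20 to 0.25, adjusted p = 0.86) nor HKC-8 (0.60, interval -0.64 to 1.84, adjusted p = 0.473) passed the test.

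SLC2A10 codes for GLUT10, an intracellular transporter known from arterial tortuosity syndrome, which is caused by its loss. In HepG2 it rose from 20.03, 16.3 and 17.95 CPM to 44.4, 42.0 and 38.4 CPM (2.30-fold, log2 1.20 ± 0.09 SE, adjusted p = 1.92e-07), with no overlap. In HKC-8 it stood at 9.29, 6.73 and 11.6 CPM in normoxia and 14.6, 11.9 and 11.97 CPM in hypoxia, a log2 fold change of 0.48 ± 0.19 SE that did not pass the threshold (interval 0.05 to 0.91, adjusted p = 0.107). With same-numbered HKC-8 samples paired, it did pass (0.50, adjusted p = 0.0136). RCC4 differed from both: the gene had 0 counts in 5 of its 6 libraries and 17 counts in hypoxic replicate 3. The normoxic HKC-8 level was at least 446-fold and the HepG2 level at least 866-fold above RCC4, with RCC4 set at 3 counts over its 3 normoxic libraries. The SLC2A10 response of HKC-8 minus that of HepG2 was -0.73 (interval -1.20 to -0.25, adjusted p = 0.0544), and it was past the threshold in DESeq2 (adjusted p = 0.0166).

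SLC2A6, SLC2A8 and SLC2A12 code for GLUT6, GLUT8 and GLUT12, which belong to the same structural class as GLUT10 and, in the case of GLUT6 and GLUT8, reside mostly on intracellular membranes such as lysosomes. SLC2A6 had the smallest ratio between its highest and lowest sample of all members, from 11.96 CPM in the lowest HKC-8 sample to 29.7 CPM in the highest RCC4 sample. In normoxia RCC4 was highest (27.2 ± 0.280 CPM, SD, n = 3) and differed from HepG2 (17.3 ± 0.737 CPM, adjusted p = 9.82e-07) and from HKC-8 (14.6 ± 2.27 CPM, adjusted p = 2.76e-05), while HKC-8 and HepG2 did not differ past the threshold (log2 difference -0.27, interval -0.56 to 0.01, adjusted p = 0.0695). Hypoxia raised SLC2A6 in HepG2 from 18.1, 16.7 and 17.2 CPM to 20.5, 19.8 and 21.3 CPM (1.18-fold, log2 0.24 ± 0.08 SE, adjusted p = 0.025), a call that was lost without normoxic replicate 2 (adjusted p = 0.0585), without hypoxic replicate 1 (0.0767), without hypoxic replicate 3 (0.0819) and in 1 fit of all 18 samples (0.239). The RCC4 fold change was 0.03 on the log2 scale (interval -0.10 to 0.15, adjusted p = 0.748). In HKC-8 it was 0.48 (interval 0.03 to 0.93, adjusted p = 0.12), and past the threshold with same-numbered samples paired (adjusted p = 0.0026).

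SLC2A8 was highest in HepG2 and lowest in HKC-8. It fell in RCC4 from 1071, 1007 and 966 counts (21.25 ± 1.30 CPM, SD, n = 3) to 775, 825 and 791 counts (16.3 ± 0.280 CPM, 1.30-fold lower, log2 -0.38 ± 0.07 SE, adjusted p = 5.24e-05), with no overlap. In HepG2 the samples of both conditions lay between 49.9 and 59.7 CPM, and the fold change was -0.01 (interval -0.18 to 0.17, adjusted p = 0.955). The responses of RCC4 and HepG2 differed by -0.38 (interval -0.60 to -0.16, adjusted p = 0.014). In HKC-8 the log2 fold change was -0.41 (interval -0.78 to -0.05, adjusted p = 0.101), without overlap. It passed with same-numbered HKC-8 samples paired (adjusted p = 0.0255). The response of HKC-8 minus that of HepG2 was -0.41 (interval -0.75 to -0.06, adjusted p = 0.133). SLC2A12, by contrast, was highest in HKC-8 (3.57 ± 0.600 CPM in normoxia), above RCC4 (2.22 ± 0.0604 CPM, adjusted p = 0.00589) and HepG2 (1.39 ± 0.250 CPM, adjusted p = 0.000124), and was the member with the reverse order of lines to SLC2A1. It passed the test of hypoxia in none of the 3 lines, with log2 fold changes of 0.21 in HKC-8 (interval -0.21 to 0.63), -0.03 in RCC4 (interval -0.39 to 0.33) and 0.05 in HepG2 (interval -0.46 to 0.56). Its canonical exons overlap those of TBPL1 on the opposite strand over 2852 bases, so its counts are uncertain without the strand setting.

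SLC2A9 codes for GLUT9, which carries urate as well as hexoses and belongs to the fructose transporter class. HepG2 had 23.9 to 27.2 CPM in normoxia and 22.0 to 24.0 CPM in hypoxia (log2 fold change -0.18, interval -0.35 to -0.0044, adjusted p = 0.0984). HKC-8 had 38 to 99 counts per library and RCC4 12 to 43, both about 1 CPM or less. HKC-8 stood at 0.492 ± 0.0744 CPM in normoxia and 0.802 ± 0.183 CPM in hypoxia (SD, n = 3), without overlap but also without passing the test (log2 0.71 ± 0.29 SE, adjusted p = 0.112). The response of HKC-8 minus that of HepG2 was 0.90 (interval 0.42 to 1.37, adjusted p = 0.0188), and 0.89 in 1 fit of all 18 samples, where the adjusted p was 0.0745.

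The HKC-8 tests of hypoxia above did not pair samples unless stated. For a further fit same-numbered HKC-8 samples were taken as pairs, although those of replicate 1 correlated at only 0.109 and not best with each other. A fit of HKC-8 with the replicate as a block called 5 of 8 members in place of 2, while the share of all 13536 genes called went from 20.4% to 42.5%. SLC2A6 (log2 0.46, adjusted p = 0.0026) and SLC2A10 (0.50, adjusted p = 0.0136) rose in the paired fit, and SLC2A8 fell (-0.41, adjusted p = 0.0255). SLC2A6 went from 15.8, 15.9 and 11.96 CPM to 23.1, 23.7 and 14.1 CPM, higher in 3 of 3 pairs, and SLC2A8 from 4.82, 5.10 and 3.88 CPM to 3.27, 3.78 and 3.27 CPM, lower in 3 of 3 pairs. Replicate 3 was low for SLC2A6 in both conditions. Without the block, single samples also decided these calls: without normoxic replicate 3, SLC2A8 (adjusted p = 0.0432) and SLC2A10 (adjusted p = 0.0214) passed, and without hypoxic replicate 3, SLC2A6 did (adjusted p = 0.0231).

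Between lines, 3 of the 10 members tested differed in response for HKC-8 against HepG2 (SLC2A1, SLC2A3 and SLC2A9, SLC2A1 and SLC2A9 higher in HKC-8 and SLC2A3 lower, background 9.30% of 15046 genes, 4.28% higher and 5.02% lower) and 4 of 10 for RCC4 against HepG2 (SLC2A1, SLC2A2, SLC2A3 and SLC2A8, the first and the third higher in RCC4 and the others lower, background 22.6% of 14813 genes, 10.9% higher and 11.7% lower). Between HKC-8 and RCC4, 1 of 9 did (SLC2A3, -4.86, adjusted p = 0.00928, background 15.2% of 14203 genes, 7.29% higher and 7.87% lower), and that value and the 3.60 for RCC4 against HepG2 (adjusted p = 0.00542) both rest on the single normoxic RCC4 count. With the replicate as a block, 5 of 10 members differed for HKC-8 against HepG2 (adding SLC2A8, adjusted p = 0.0219, and SLC2A10, adjusted p = 0.00937), where 20.1% of all genes did, and 3 of 9 for HKC-8 against RCC4 (adding SLC2A6, adjusted p = 0.00754, and SLC2A10, adjusted p = 0.0297, which rests on the 17 counts of 1 RCC4 library), where 28.7% did. This block also paired the HepG2 or RCC4 samples by number, although same-numbered samples were taken as pairs in HKC-8 only. The RCC4 differences cannot be told apart from those in labelled oxygen and duration. Some members entered these tests through the other line only. SLC2A2 and SLC2A14 had at most 7 counts in any HKC-8 library. In RCC4, SLC2A4 had at most 1 count per library, SLC2A14 had 0 and SLC2A10 had counts in 1 library. Where such a member was not called, its responses could not be compared, and the lines cannot be said to respond alike.

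The share of SLC2A1 among the 10 members was higher in hypoxia in HKC-8 and RCC4 and lower in HepG2 (see the plot of shares by group). To compare members with each other, CPM were divided by the length of the canonical transcript. The summed level of the 10 members was higher in hypoxia in each line, at 87.7 ± 5.01 CPM per kb against 31.9 ± 2.26 in normoxia for HKC-8, 326 ± 6.88 against 99.8 ± 1.08 for RCC4, and 1581 ± 71.0 against 623 ± 28.3 for HepG2 (SD, n = 3 each), with no overlap between conditions. SLC2A1 made up 49.7 ± 3.19% of that sum in normoxic HKC-8 and 67.0 ± 3.93% in hypoxic HKC-8, and 73.7 ± 1.19% and 93.6 ± 0.228% in RCC4. In HepG2 its share was 72.5 ± 0.514% in normoxia and 53.5 ± 0.723% in hypoxia, lower although its own level rose. The exact two-sided permutation test gave p = 0.1 in each line, the smallest that 3 against 3 samples allow, and the conditions did not overlap in any of them. The share of SLC2A3 in HepG2 was 15.6 ± 0.645% in normoxia and 41.8 ± 0.627% in hypoxia. With SLC2A3 and SLC2A14 left out of the sum, the SLC2A1 share in HepG2 was higher in hypoxia by 6.31 percentage points.

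**Figure D3:**
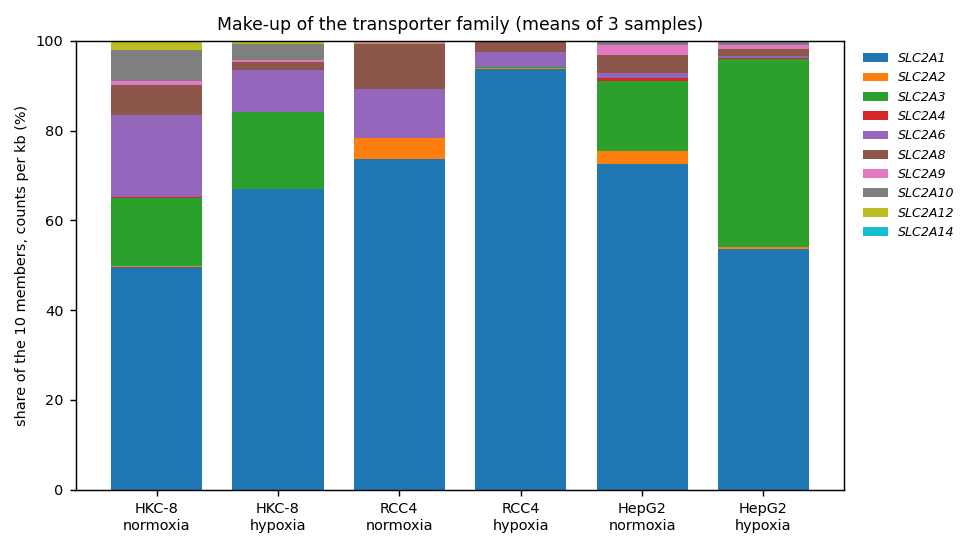
Stacked bars give each member's mean share (%) of the summed level per kilobase of transcript of the 10 members, over the 3 samples of each of the 6 groups. SLC2A1 stands at 49.7% in normoxia and 67.0% in hypoxia for HKC-8, at 73.7% and 93.6% for RCC4, and at 72.5% and 53.5% for HepG2, where SLC2A3 stands at 15.6% and 41.8%.

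Below SLC2A1 the order of members per kilobase differed between lines. In normoxic HKC-8 the next were SLC2A6 (5.85 ± 0.911 CPM per kb) and SLC2A3 (4.85 ± 0.772), whose spreads overlap, and in hypoxia SLC2A3 was second (15.0 ± 3.67). In RCC4 SLC2A6 (10.9 ± 0.113) and SLC2A8 (9.91 ± 0.608) followed in normoxia, ahead of SLC2A2 (4.64 ± 0.379). In HepG2 SLC2A3 (97.0 ± 8.09) was second, followed by SLC2A8 (25.8 ± 2.16), SLC2A2 (18.7 ± 1.02) and SLC2A9 (13.9 ± 0.923).

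Genes with the pattern most like SLC2A1, SLC2A2 and SLC2A3 over the 18 samples were ranked by the root mean square difference of centred log2 CPM among 15307 genes. PTP4A3 (0.622), ANO7 (0.692) and RCAN3 (0.693) were closest to SLC2A1, whose own root mean square about its mean was 1.97. GGT5 (0.700), CADPS2 (0.724) and SLC40A1 (0.785) were closest to SLC2A2 (own value 3.95), and FBXO2 (1.54), NES (1.62) and ISM2 (1.63) to SLC2A3 (own value 5.34).

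Genes that act beside the transporters were taken from 4 lists, and genes named from them with a log2 change under 1 were chosen after their values were seen. Among the enzymes of glucose phosphorylation and its reversal, 3 of 6 tested rose in HKC-8 and 0 fell, 2 of 6 rose and 3 (HKDC1, ADPGK and G6PC3) fell in RCC4, and 3 of 8 rose and 0 fell in HepG2, beside 20.4%, 50.1% and 39.1% of all genes called in either direction in these lines. The median log2 fold change of the list was 0.52, -0.07 and 0.11, in the same order, against medians within 0.004 of 0 over all genes. HK1 and HK2, the hexokinases that trap glucose in the cell, rose in all 3 lines. HK2 rose by log2 1.49 ± 0.18 SE in HKC-8 (adjusted p = 0.00112), 2.13 ± 0.04 in RCC4 (adjusted p = 2.25e-22) and 1.77 ± 0.08 in HepG2 (adjusted p = 2.31e-09). HK1 rose by 0.83 ± 0.10, 1.33 ± 0.04 and 2.70 ± 0.11 in the same order (adjusted p = 0.000784, 1.09e-18 and 5.29e-10). HKDC1, a further hexokinase, rose in HKC-8 (1.25 ± 0.11, adjusted p = 0.000129) and fell in RCC4 (-0.21 ± 0.04, adjusted p = 3.24e-05). G6PC, the catalytic subunit of glucose-6-phosphatase, which releases glucose from liver cells, rose in HepG2 (1.23 ± 0.32, adjusted p = 0.00838) and had too few counts for the test in the other lines. Its level in HepG2 was low, with an average log2 CPM of -0.18.

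Of 18 genes of transporter trafficking, 2 rose and 1 (SNAP23, a membrane fusion protein, log2 -0.38, adjusted p = 0.0155) fell in HKC-8, 8 rose and 4 (TXNIP, ASPSCR1, GIPC1 and SNX27) fell in RCC4, and 6 rose and 5 (RAB10, SNAP23, GIPC1, VPS26A and VPS29) fell in HepG2, beside the same 20.4%, 50.1% and 39.1% of all genes. The list's median log2 fold change was -0.08, 0.04 and -0.05. SNAP23 and VPS29 rose in RCC4 (log2 0.21, adjusted p = 0.00013, and 0.09, adjusted p = 0.0375), and ASPSCR1 rose in HepG2 (0.39, adjusted p = 0.00296). Also rising in RCC4 were TBC1D4 (0.45), SORT1 (0.28), TBC1D1 (0.21), LNPEP (0.21), VPS35 (0.21) and STXBP3 (0.16). TBC1D4 (0.59), TBC1D1 (0.29) and SORT1 (0.28) rose in HepG2 as well. TXNIP and ARRDC4 code for arrestin-like proteins that promote removal of GLUT1 from the membrane. TXNIP rose in HKC-8 (log2 1.69 ± 0.15 SE, adjusted p = 0.000188) and HepG2 (1.20 ± 0.08, adjusted p = 7.23e-08) and fell in RCC4 (-0.21 ± 0.06, adjusted p = 0.00371). ARRDC4 rose in HKC-8 (1.06 ± 0.14, adjusted p = 0.00168) and HepG2 (0.90 ± 0.10, adjusted p = 1.13e-05), and its value in RCC4 was -0.03 (adjusted p = 0.876).

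**Figure D4:**
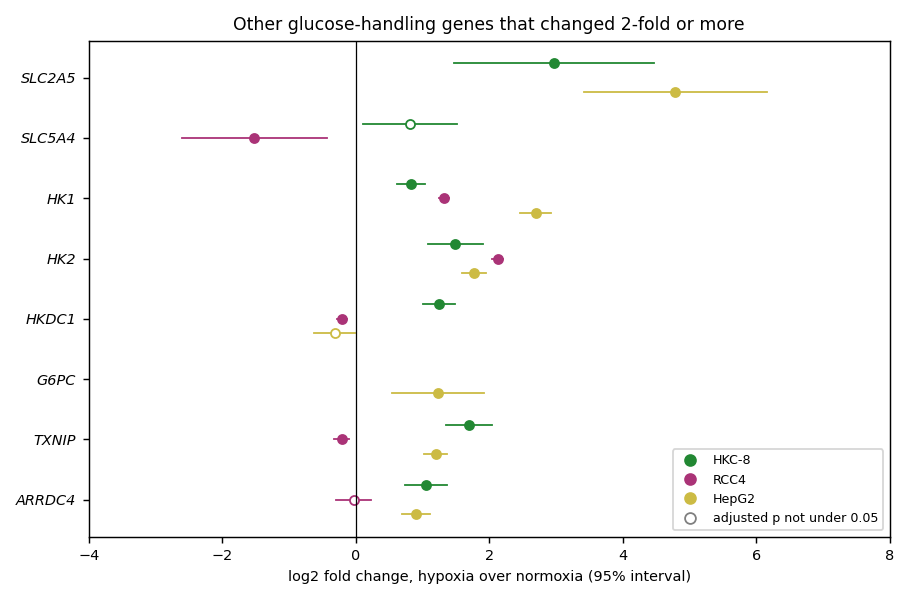
The log2 fold change of hypoxia over normoxia is plotted with its 95% interval for the 8 related genes that passed the test with a change of at least 1 log2 unit in at least 1 line, with colours and filling as for the members. HK1 and HK2 lie right of 0 in the 3 lines, and TXNIP lies right of 0 in HKC-8 and HepG2 and left of it in RCC4.

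Of the 4 other SLC2A genes, which carry fructose, other sugars or myo-inositol or are less well defined, 1 of 3 tested rose in HKC-8, 0 of 2 rose and 1 fell in RCC4 (SLC2A11, log2 -0.39, adjusted p = 0.000553), and 2 of 3 rose in HepG2 (SLC2A5 and SLC2A13, the latter by log2 0.42, adjusted p = 0.0189). Over all genes, 20.4%, 50.1% and 39.1% were called in either direction in HKC-8, RCC4 and HepG2. SLC2A5, the fructose transporter GLUT5, had 16, 20 and 135 counts in normoxic HKC-8 and 327, 342 and 634 in hypoxic HKC-8 (7.83-fold, log2 2.97 ± 0.66 SE, adjusted p = 0.0152), with replicate 3 the highest in both conditions. HepG2 had 0, 4 and 0 SLC2A5 counts in normoxia and 41, 32 and 43 in hypoxia, a ratio of 29.9 with a counting interval of 11.4 to 112 (adjusted p = 6.32e-05). RCC4 had none in normoxia and 5, 2 and 4 in hypoxia, which at a floor of 3 counts over the normoxic libraries is at least 3.59-fold higher and was too low for the test. Of the sodium-glucose cotransporters, which move glucose against its gradient, 0 of 2 tested changed in HKC-8, 1 of 2 fell in RCC4 (SLC5A4, log2 -1.52 ± 0.53 SE, adjusted p = 0.0196) and 0 of 4 changed in HepG2, beside the same 20.4%, 50.1% and 39.1% of all genes. SLC5A4 was low in RCC4, with an average log2 CPM of -1.72.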

How the data were processed

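PolyA+ RNA libraries had been made with the ScriptSeq v2 kit. The authors trimmed adapters (Trim Galore 0.3.3), aligned reads to GRCh37 with TopHat2 2.0.8b and Bowtie 1.0.0, dropped fragments that did not map uniquely (SAMtools 0.1.19) and counted reads on UCSC-defined genes with HTSeq 0.5.4p3 in its strict intersection mode. The deposited values are these raw read counts per gene, without normalization, and 1 file was used per sample. Dropping multiply mapped fragments can lower SLC2A3 and SLC2A14.

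Groups came from the labels. Counts were tested with edgeR 4.0.16 in R 4.3.3 (filterByExpr, TMM, glmQLFit, glmQLFTest) on the samples of each comparison, with Benjamini-Hochberg adjustment over all genes tested and a threshold of 0.05; SE is the log2 fold change over the square root of F. Differences in response are interaction terms. Shares were tested by exact permutation (SciPy 1.17.1). Counting intervals (95%) and floors cover counting error only. The scripts were tested on simulated data with 200 changed genes. Transcript lengths, overlaps and coordinates are from GENCODE lifted to GRCh37.

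The labels give both conditions of a line the same replicate numbers. Deviations from the group means of same-numbered samples correlated at 0.109, 0.453 and 0.447 in HKC-8, each over 0.1, so these were taken as pairs in the replicate block. The main fits did not pair samples in any line. The alternatives were DESeq2 1.42.0, other filters, 1 fit of all samples, the replicate block, leaving out each sample, and other lengths. Every member is named. By rule a related gene is named when called with a log2 change of at least 1 in at least 1 line. Related genes named below that size were chosen after their values were seen. The 3 nearest genes of SLC2A1, SLC2A2 and SLC2A3 by pattern are named too. The members and lists were chosen with earlier results of these data known.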

Additional observations from a re-analysis of the deposited data

Results flagged for a closer look

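Differences in hypoxic response between lines, each tested as an interaction on the log2 scale with edgeR, were singled out for 4 members besides SLC2A3. SLC2A1 responded more in HKC-8 than in HepG2 by 0.98 and more in RCC4 than in HepG2 by 1.15. SLC2A3 responded less in HKC-8 than in HepG2 (-1.14), and the differences of -4.86 for HKC-8 against RCC4 and 3.60 for RCC4 against HepG2 rest on 1 normoxic count in RCC4. SLC2A2 fell further in RCC4 than in HepG2 (-1.02), and SLC2A8 fell in RCC4 with a difference of -0.38 to HepG2. The SLC2A8 change in HKC-8 was -0.41, not past the threshold without pairing. Its difference for HKC-8 against RCC4 was -0.01 (interval -0.34 to 0.31). SLC2A9 differed between HKC-8 and HepG2 by 0.90, although its change passed the test in neither line. Normoxic levels differ between the lines too, by 6.04-fold for SLC2A1 between RCC4 and HepG2, and their part in the differences was not tested.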

How the results depend on the processing

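In hypoxia against normoxia, the members past the threshold in each line, other than SLC2A6 in HepG2, kept their direction and their side of the threshold in every alternative that tested them. In HKC-8 the 2 of 8 members called became 5 of 10 in 1 fit of all 18 samples, which added SLC2A6, SLC2A8 and SLC2A9. The share of all genes called went from 20.4% to 32.7% in that fit. The replicate block called 5 of 8 members, beside 42.5% of all genes. Leaving out 1 sample gave 2 to 4 members, and the share of all genes was 7.37% without normoxic replicate 1. In RCC4 without the low-count filter 5 members were called, the added one being SLC2A10 with its 17 counts in 1 library. In HepG2, SLC2A9 passed without normoxic replicate 3 (-0.24, adjusted p = 0.025). Of the differences in response, those of HKC-8 minus HepG2 went from 3 of 10 members to 5 of 10 with the replicate block (adding SLC2A8 and SLC2A10). Those of HKC-8 minus RCC4 went from 1 of 9 to 2 of 8 with DESeq2 (adding SLC2A2, with at most 7 counts per HKC-8 library). They were 0 of 5 with at least 10 counts in every sample, where SLC2A3 is not tested, 3 of 9 with the replicate block and 1 to 3 leaving out 1 sample (highest without hypoxic HKC-8 replicate 3). Those of RCC4 minus HepG2 went from 4 of 10 to 2 of 10 in 1 fit of all 18 samples (SLC2A3, adjusted p = 0.0599, and SLC2A8, adjusted p = 0.0782, being lost). Numbers over all genes for the block and for that fit are given below. With at least 10 counts in every sample the normoxic comparisons called 4 of 5 members tested for HKC-8 against RCC4 and 6 of 6 for RCC4 against HepG2, since fewer were tested. The cause of the other changes was not tested.

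The SLC2A1 share in HKC-8, hypoxia minus normoxia, was 22.1 percentage points without SLC2A3 and SLC2A14, against 17.3. In RCC4 (19.9) it was 16.2 without division by length and 24.2 with the union of annotated exons as length, a choice made after seeing the data, and in HepG2 (-19.0) the values were -21.9, -17.8 with that union, and 6.31 without SLC2A3 and SLC2A14, where the direction turned. Leaving out 1 sample gave 15.5 to 19.5 (HKC-8), 19.4 to 20.6 (RCC4) and -19.3 to -18.6 (HepG2).

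Over all genes, 1 fit of all 18 samples called 5013 of 15307 genes in HKC-8 against 2757 of 13536, and 3286 of 15307 in RCC4 against 6423 of 12811. For HKC-8 minus HepG2 it called 2219 of 15307 against 1399 of 15046, and for RCC4 minus HepG2 1886 of 15307 against 3354 of 14813. The replicate block called 5755 of 13536 in HKC-8, 3019 of 15046 for HKC-8 minus HepG2 and 4071 of 14203 for HKC-8 minus RCC4, the last against 2154. Leaving out 1 sample gave as few as 1013 of 13739 in HKC-8 (normoxic replicate 1) and 911 of 15525 for HKC-8 minus HepG2 (hypoxic HepG2 replicate 1). In RCC4 and HepG2 the samples were not taken as pairs: same-numbered samples correlated at -0.0103 to 0.0333 and at 0.0617 to 0.184, and the block left the members called at 4 and 6. Pairing in HepG2 is not settled, since every HepG2 sample correlated best with its own number, which held for 2 of 3 numbers in HKC-8 and 1 of 3 in RCC4.

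Members not called changed sign when 1 sample was left out, each with an adjusted p over 0.05. In response differences the values ran from -6.15 to 0.47 for SLC2A10 in HKC-8 minus RCC4 and from -1.20 to 4.83 in RCC4 minus HepG2 (both turned without hypoxic RCC4 replicate 3), from -0.226 to 0.0567 for SLC2A12, -0.60 to 0.46 for SLC2A4 and -0.57 to 0.24 for SLC2A9 in RCC4 minus HepG2, from -0.0146 to 0.926 for SLC2A4 in HKC-8 minus HepG2 and from -0.13 to 0.059 for SLC2A8 in HKC-8 minus RCC4. In HepG2 they ran from -0.0956 to 0.187 for SLC2A12, -0.0403 to 0.0775 for SLC2A4 and -0.0807 to 0.0551 for SLC2A8, in RCC4 from -0.057 to 0.00123 for SLC2A12, -0.0286 to 0.0843 for SLC2A6 and -0.761 to 0.0672 for SLC2A9, and in normoxic HKC-8 against RCC4 from -0.65 to 0.16 for SLC2A9.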
